A study of Mus musculus with 2 samples.

Results

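The 10 genes described here are components of the Notch pathway: the receptors Notch1, Notch2, Notch3 and Notch4, the ligands Jag1, Dll1 and Dll4, and the target genes Hes1, Hey1 and Heyl. They were taken by symbol from the gene lists of both libraries, which hold 33696 genes each, and all 10 were found in both. They were picked by name and not by a measured value, although earlier results of these data were known when they were picked. Notch signalling passes between touching cells: a ligand on the surface of a cell binds a receptor on its neighbour, the receptor is cut, and its intracellular part enters the nucleus and works with the DNA-binding protein Rbpj to switch on targets, chiefly repressors of the Hes and Hey families. In vessels Dll4 and Notch1 set which endothelial cells lead a sprout, and Jag1 and Notch3 act between endothelium and the smooth muscle cells and pericytes around it, which are together called mural cells. In skin and hair Notch1, Notch2 and Jag1 take part in keratinocyte differentiation.

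The libraries are single-cell RNA sequencing of mouse digits amputated through the second phalanx (P2), a level at which the digit does not regenerate. The study asked what the growth factor FGF8 changes in such a wound. Hindlimb digits were amputated on postnatal day 3, an agarose bead soaked in FGF8 (500 ng/µl) or in bovine serum albumin (BSA, 0.1%, the control) was implanted on day 7, and the tissue distal to the stump was collected on day 8, 24 h after the bead. Both groups share the amputation and the bead and carry no transgene or deletion by their labels. The study's methods name ICR mice of both sexes. Each library pooled 20 digits from 5 mice, and the FGF8 pool is likely to include digits that would not have gone on to regenerate. With 1 library per condition there is no replicate and no test of the bead, so every interval below is a 95% interval that covers counting error only, and animal, sex, dissociation and bead cannot be told apart.

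The FGF8 library held 7249 barcodes and the BSA library 3703, of which 6715 and 3252 passed the cell filter, with a median of 12251 and 15377 UMIs (unique molecular identifiers, each counted as 1 RNA molecule) per cell. A total of 6 barcode sequences occurred in both. The sexes were mixed unequally: of the cells that could be called by sex-linked genes, 24.6% were female with FGF8 and 79.3% with BSA, so ratios within each sex are given beside the main results. Cells were clustered again for this work, and each cluster was named from fixed marker genes, giving 12 cell types that are called by type with "-like" understood. These hold 3152 and 1690 connective tissue cells (FGF8 and BSA), 285 and 187 mural cells, 141 and 121 endothelial cells, 238 and 175 keratinocytes, 241 and 124 Schwann cells, 793 and 380 macrophages and 536 and 158 neutrophils, with fewer of the rest. A cluster of 361 and 136 cells of low UMI count stayed unnamed. Surrounding epithelium was removed in the study's dissection, yet a keratinocyte cluster led by Krt25, Krt71, Krt1 and Krt10 was present in both libraries. Levels are CPM, the UMIs of a gene scaled to 1000000 UMIs of all genes, summed over the cells of a type.

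Notch3, a receptor known for its role in vascular smooth muscle, was the member most set apart by cell type among the receptors. In mural cells it stood at 411 (390.1 to 432) CPM with FGF8 and 446 (422 to 471) with BSA. The next type in both libraries, keratinocytes, had 30.8 and 35.1 CPM, 13.3 and 12.7 times less. Mural cells were few but held 68.8% and 76.0% of the Notch3 UMIs of all named types. A Notch3 UMI was seen in 91.2% and 92% of mural cells at median depths of 11113 and 14809 UMIs, against 2.40% and 0.789% of macrophages at 9548 and 10768.5. With every cell thinned to 2000 UMIs the shares were 48.9% and 56.9% in mural cells and 0.578% and 0.301% in macrophages. The types stayed as far apart at equal depth.

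**Figure D1:**
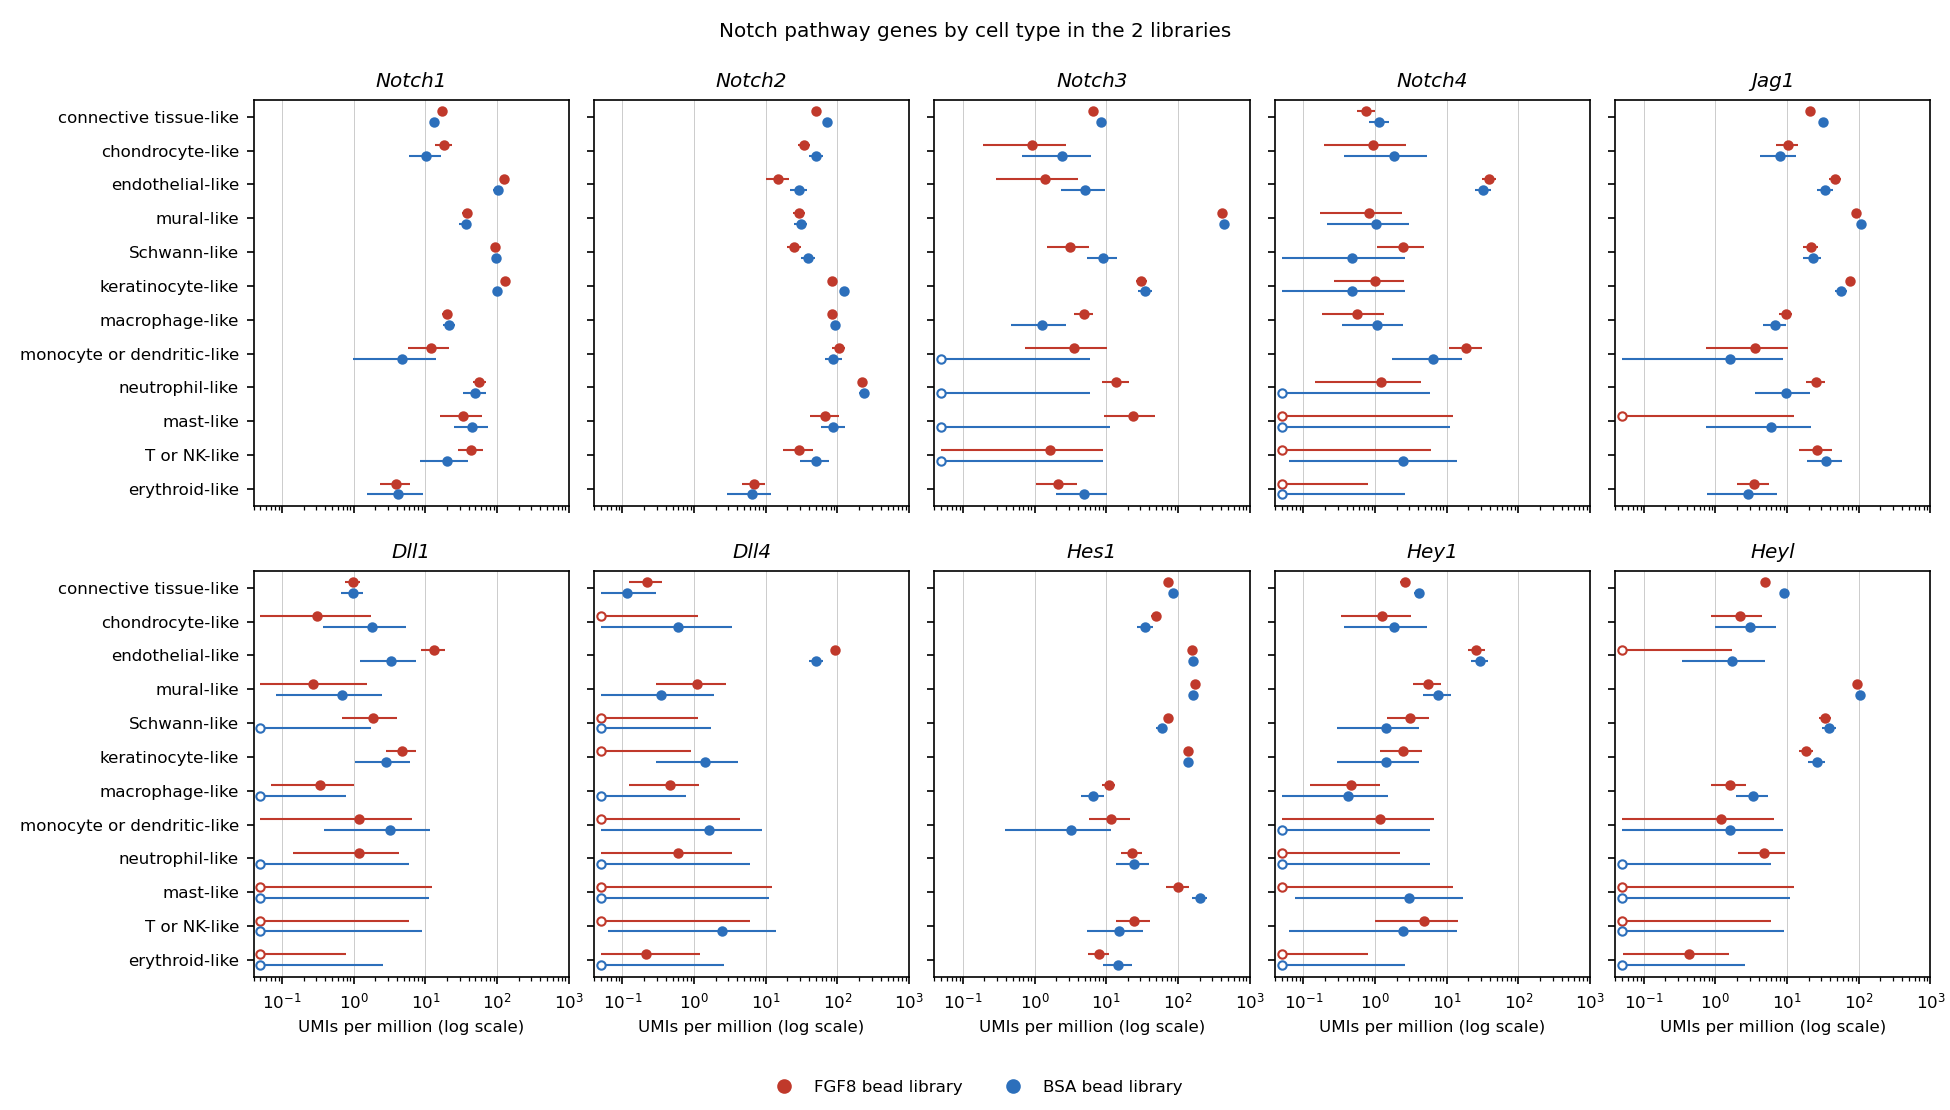
Level of each of the 10 genes in the 12 cell types, in CPM on a log axis, 1 point per library (FGF8 and BSA) with its 95% Poisson interval as a line and values of 0 as open circles at the left edge. Notch3 is highest in mural cells at 411 and 446 CPM, and Dll4 in endothelial cells at 92.9 and 50.3 CPM, with all other types at or below 2.47 CPM.

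Notch4, the receptor known mainly from endothelium, was highest in endothelial cells of both libraries, at 39 (31.1 to 48.3) and 32.4 (24.6 to 41.9) CPM. Monocyte or dendritic cells came next with 18.9 and 6.36 CPM. Every other type was at 2.48 CPM or below with FGF8 and 2.47 with BSA. Endothelial cells carried 47.5% and 50% of the Notch4 UMIs of all named types. The gene rests on few counts, 84 and 58 UMIs in those cells.

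Notch1 had no single place. Keratinocytes (131 and 99.5 CPM), endothelial cells (123 and 102 CPM) and Schwann cells (93.1 and 96.5 CPM) led in both libraries. The first of these was keratinocyte with FGF8 and endothelial with BSA, and the intervals of the top pair overlapped in each. Connective tissue cells were far lower, at 16.9 and 13.3 CPM.

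Notch2, the receptor with a broad spread over cell types, was highest in neutrophils, at 221 (199 to 245) and 233 (197 to 274) CPM. Neutrophils were shallow, with medians of 2410 and 3214 UMIs, and their interval lay above that of every other type in both libraries. Behind them came monocyte or dendritic cells (104 and 87.5 CPM), keratinocytes (85 and 122) and macrophages (83.1 and 92). A macrophage cluster that was also shallow, with medians of 1707 and 2759 UMIs, had 141 and 234 CPM. The other macrophage clusters had 89.6 and 102 CPM, and 64.3 and 64.4 CPM. Connective tissue cells had 49.8 and 72.4 CPM and, being the most numerous, held 61.7% and 64.8% of all Notch2 UMIs in kept cells.

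Among the ligands, Dll4, which restrains sprouting in neighbouring endothelial cells, was measured almost wholly in endothelium. Its level there was 92.9 (80.5 to 107) CPM with FGF8 and 50.3 (40.5 to 61.9) with BSA. Endothelial cells held 88.9% and 89.1% of the Dll4 UMIs. The remaining types together averaged 0.247 and 0.209 CPM. Dll1, a ligand of somites and of arteries, was scarce, with 127 and 53 UMIs over all named types, and was highest in endothelial cells at 13 and 3.36 CPM, although in the BSA library the next types could not be told from them.

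Jag1, the ligand shared by vessel wall and hair follicle, was highest in mural cells at 90.7 (81.2 to 101) and 107 (95.5 to 119.6) CPM. Keratinocytes followed with 74.8 and 56.9 CPM. In the FGF8 library these neighbours overlapped in their intervals and in the BSA library they did not. Endothelial cells had 46.5 and 34.1 CPM.

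The targets followed different types. Heyl, a Notch target of smooth muscle, was highest in mural cells, at 93.4 (83.8 to 104) and 103 (91.3 to 115) CPM, then in Schwann cells (33.4 and 38.1) and keratinocytes (18.4 and 26.1). Hey1, a target in endothelium, was highest in endothelial cells at 26 (19.7 to 33.8) and 29.1 (21.7 to 38.1) CPM, with mural cells next at 5.46 and 7.55. Hes1, a target that other pathways also induce, was spread widely. It reached 175 and 161 CPM in mural cells, 155 and 162 in endothelial cells and 137 and 136 in keratinocytes. Mast cells led it in the BSA library at 202 CPM against 100.3 in the FGF8 library, on 38 and 57 cells.

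For 8 of the 10 genes the same cell type was highest in both libraries, the exceptions being Notch1 and Hes1. In male-called cells alone, which are few with BSA, this held for 3. In female-called cells Notch2 and Dll1 were exceptions as well. Over the 24 points of 12 types in 2 libraries, the member pairs with the closest log2 levels were Notch4 and Dll4 (Pearson r = 0.78), Notch3 and Heyl (0.76) and Notch4 and Dll1 (0.72). The points of a library share its depth and its cell pool, so these are descriptions. Of 12455 genes with enough counts, the most like Notch3 was Tagln (r = 0.92), then Acta2 and Gucy1a2 (0.91 each). Tagln and Acta2 are genes of contractile smooth muscle. Dll4 was closest to Podxl (0.94), Myct1 and Emcn (0.92 each), genes of endothelium. Tagln, Acta2 and Emcn are also among the markers that named the types. Notch4 was closest to Zfp366 (0.89), Rasgrp3 and Vwf (0.87 each), and Hes1 to Ptpn3 and Nckap1 (0.92 each).

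The promoters of Notch3, Notch4 and Dll4 are shown. Their highest type, mural or endothelial, stood furthest above the average of all other cells. The folds with FGF8 and BSA were 57.9 and 49.2 for Notch3, 41.1 and 29.4 for Notch4 and 376 and 241 for Dll4. Against the next type alone Notch4 was only 2.07 times higher with FGF8, and Hey1 4.76 times. The sequences come from RefSeq windows (build GRCm38.p6) that were each found once in GRCm39, the build of the count files, and run 5′ to 3′ on the gene's strand up to the base before the annotated gene start. Capitals mark the GC box GGGCGG and its reverse complement CCGCCC. Dll4 lies at chr2:119156170-119166443 on the + strand, and chr2:119156015-119156169 is shown. Notch3 lies at chr17:32339794-32385893 on the - strand, and chr17:32385894-32386114 is shown. Notch4 lies at chr17:34783220-34807477 on the + strand, and chr17:34783019-34783219 is shown.
Dll4: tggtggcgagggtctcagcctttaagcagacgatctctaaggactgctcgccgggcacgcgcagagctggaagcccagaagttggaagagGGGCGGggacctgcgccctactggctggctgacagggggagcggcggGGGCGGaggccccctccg
Notch3: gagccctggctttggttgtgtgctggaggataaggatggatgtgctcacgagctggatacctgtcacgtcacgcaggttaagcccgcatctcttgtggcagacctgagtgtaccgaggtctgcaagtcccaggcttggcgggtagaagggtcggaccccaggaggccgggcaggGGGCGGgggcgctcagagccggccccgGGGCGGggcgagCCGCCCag
Notch4: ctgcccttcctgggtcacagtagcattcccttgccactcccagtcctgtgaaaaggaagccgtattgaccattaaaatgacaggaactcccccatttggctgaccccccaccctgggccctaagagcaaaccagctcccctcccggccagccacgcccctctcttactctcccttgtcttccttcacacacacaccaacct
The Dll4 stretch is 69.0% G or C with 2 GC boxes, the Notch3 stretch 67.0% with 3, and the Notch4 stretch 57.2% with 0. In the full 250-base windows, searched on both strands, a GC box was present for Notch1, Notch2, Notch3 and Dll4, in 4 of 8 windows of 7 members, against 32.7% of the 32851 mouse windows. The core of the Rbpj site, TGGGAA or TTCCCA, was in 0 of the 8 and in 21.6% of all windows. These letters are absent from these windows only, which says nothing of Rbpj elsewhere. Hes1, Hey1 and Heyl had no entry.

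In connective tissue cells, the fibroblast-like and tenocyte-like cells that form the largest type in both libraries, 8 of the 10 genes were lower in the FGF8 library and 2 higher, with a median log2 ratio of -0.43. Over the 19969 genes with at least 10 UMIs the median was -0.08 and 56.5% lay below 0. None of the 10 passed 2-fold, a size that 6.42% of all genes passed upward and 5.29% downward. The counting interval lay below 0 for 6 members and above 0 for 1, as it did for 31.8% and 23.0% of all genes.

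Of the receptors in connective tissue cells, Notch2 was lower with FGF8 (49.8 against 72.4 CPM, log2 ratio -0.54, interval -0.62 to -0.47). Notch1 was higher (16.9 against 13.3 CPM, 0.34, interval 0.18 to 0.50). These receptors thus differed in opposite directions within the same cell type. Notch3 differed by -0.33 (-0.54 to -0.11) and Notch4, on 52 and 40 UMIs, by -0.59 (-1.21 to 0.04). Notch3 was higher with FGF8 in 5 of the 8 clusters described below, and its ratio was 0.27 with those clusters weighted equally. Among male-called cells Notch3 stood at 0.15 and Notch4 at 0.05, so their direction was not the same there, whereas Notch1 (0.43) and Notch2 (-0.48) kept theirs in male-called cells and in female-called cells.

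Jag1, the only ligand with many counts in these cells, was lower with FGF8 (20.7 against 31.2 CPM, -0.59, interval -0.71 to -0.48). Cells called female gave a Jag1 ratio of -0.45 and those called male -0.73. Dll1 did not differ beyond counting error (-0.01, interval -0.63 to 0.63), and Dll4 had 15 and 4 UMIs, with ratios of 0.94 over all these cells and -1.07 in male-called cells. The pericyte marker list was also lower in the FGF8 connective tissue cells, at 94.9 against 144 CPM summed, and its part in the Jag1 and Notch3 values was not tested.

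All 3 targets were lower with FGF8. Heyl had 4.95 against 8.95 CPM (-0.86, interval -1.08 to -0.63), Hey1 2.61 against 4.12 (-0.66, interval -0.98 to -0.33) and Hes1 72 against 85.7 (-0.25, interval -0.32 to -0.18). The Hes1 difference was the smallest and stood at 0.06 among male-called cells. The Heyl ratio was 0.07 when cells were thinned to 2000 UMIs, and the Hey1 ratio 0.24 when the clusters below were weighted equally.

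**Figure D2:**
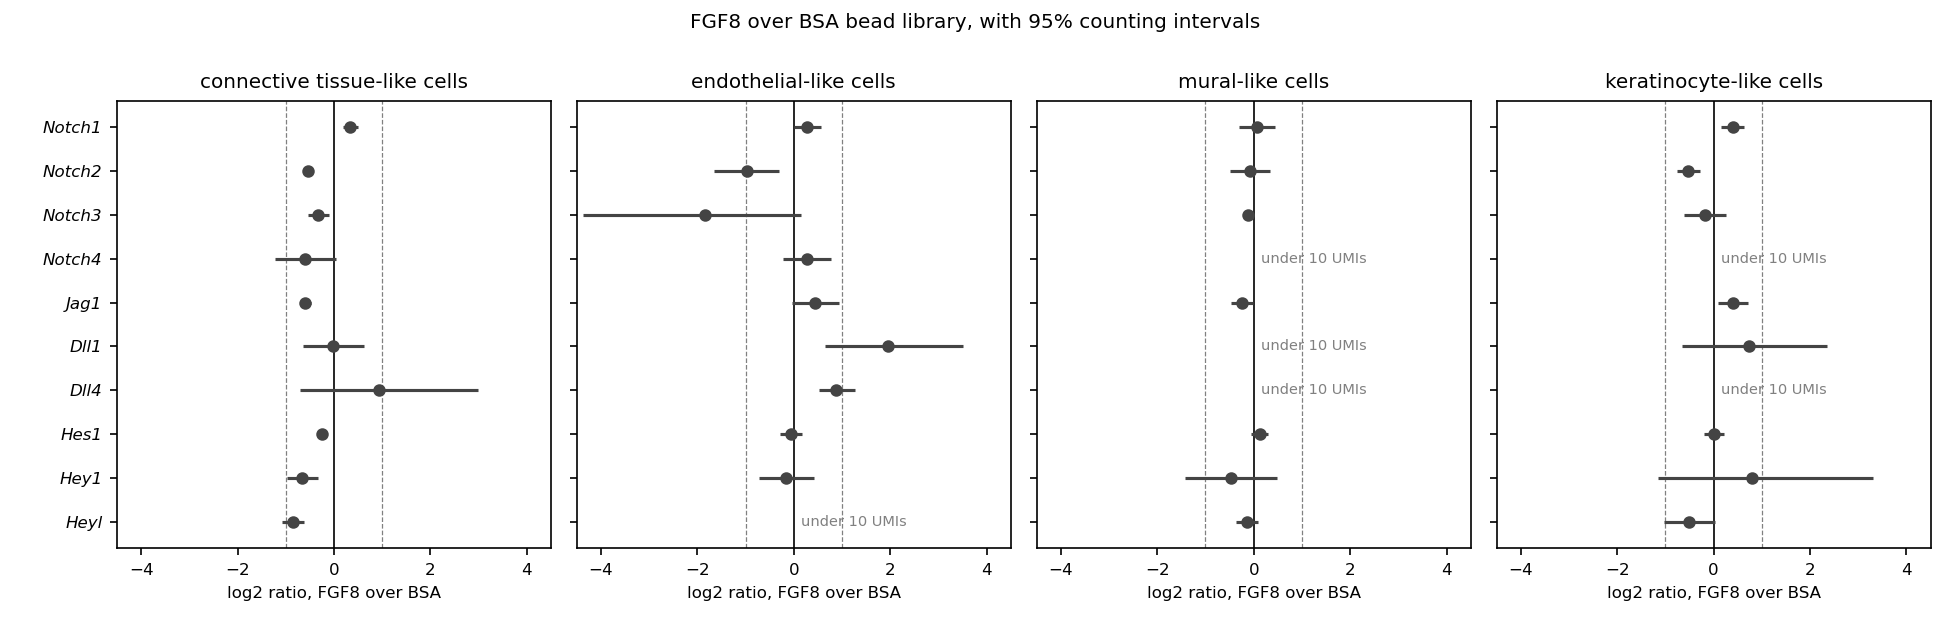
Log2 ratio of CPM, FGF8 over BSA, for each of the 10 genes in connective tissue, endothelial, mural and keratinocyte cells, with exact 95% counting intervals as lines and dashed lines at 2-fold. In connective tissue cells Notch2 (-0.54) and Jag1 (-0.59) lie left of 0 and Notch1 (0.34) right of it, while in endothelial cells Dll4 (0.88) and Dll1 (1.96) lie right of 0.

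The connective tissue cells fell into 8 clusters whose sizes differed between the libraries. A cluster led by Mmp3 and Rgcc held 18.3% of them with FGF8 and 8.76% with BSA, a cycling cluster led by H1f5 and Ube2c held 17.5% and 7.16%, and a cluster led by Chodl and Sema3a held 20.5% and 27.8%. The ratios over all connective tissue cells therefore mix clusters in different proportions. Set against cells of other broad clusters, the Mmp3 and Rgcc cluster and the cycling cluster were both led by Prg4. Notch2 was lower with FGF8 in 8 of 8 clusters, from -0.67 to -0.07, with the interval below 0 in 7. Notch1 was higher in 6 of 8, with the interval above 0 in 4. With clusters weighted equally their ratios were -0.37 and 0.52.

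Jag1 differed by cluster. It was lower with FGF8 in the Mmp3 and Rgcc cluster (11.7 against 29.3 CPM, -1.32, interval -1.64 to -0.998), in the cycling cluster (12.4 against 23.3, -0.91, interval -1.25 to -0.55) and in a cluster led by Lpl and Agtr2 (39 against 56.4, -0.53, interval -0.76 to -0.30). In the other 5 clusters the ratio was between 0.04 and 0.22, and no interval lay above 0. With clusters weighted equally the Jag1 ratio was -0.17. Hes1 had its interval below 0 in 3 clusters, those led by Comp and Fmod, by Mmp3 and Rgcc and by cycling genes, and its ratio ranged from -0.59 to 0.18.

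A small cluster led among connective tissue cells by Ednrb and Sox18, and among all cells by Rspo3 and Lrrc15, with 79 and 38 cells, was the highest of the 8 in both libraries for every member but Notch2 and Dll4. It had 103 (84.5 to 124) and 100.5 (79.2 to 126) CPM of Jag1, 183 and 163 of Hes1, and 48.2 and 59.5 of Heyl. Dll1 reached 30.2 and 15.9 CPM there, above its level in endothelial cells with intervals apart, on 32 and 12 UMIs. Notch2 was highest in a cluster of low UMI count, and Dll4 had under 10 UMIs in every cluster. The cluster is known only by its leading genes, and it was singled out after its values were seen.

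**Figure D3:**
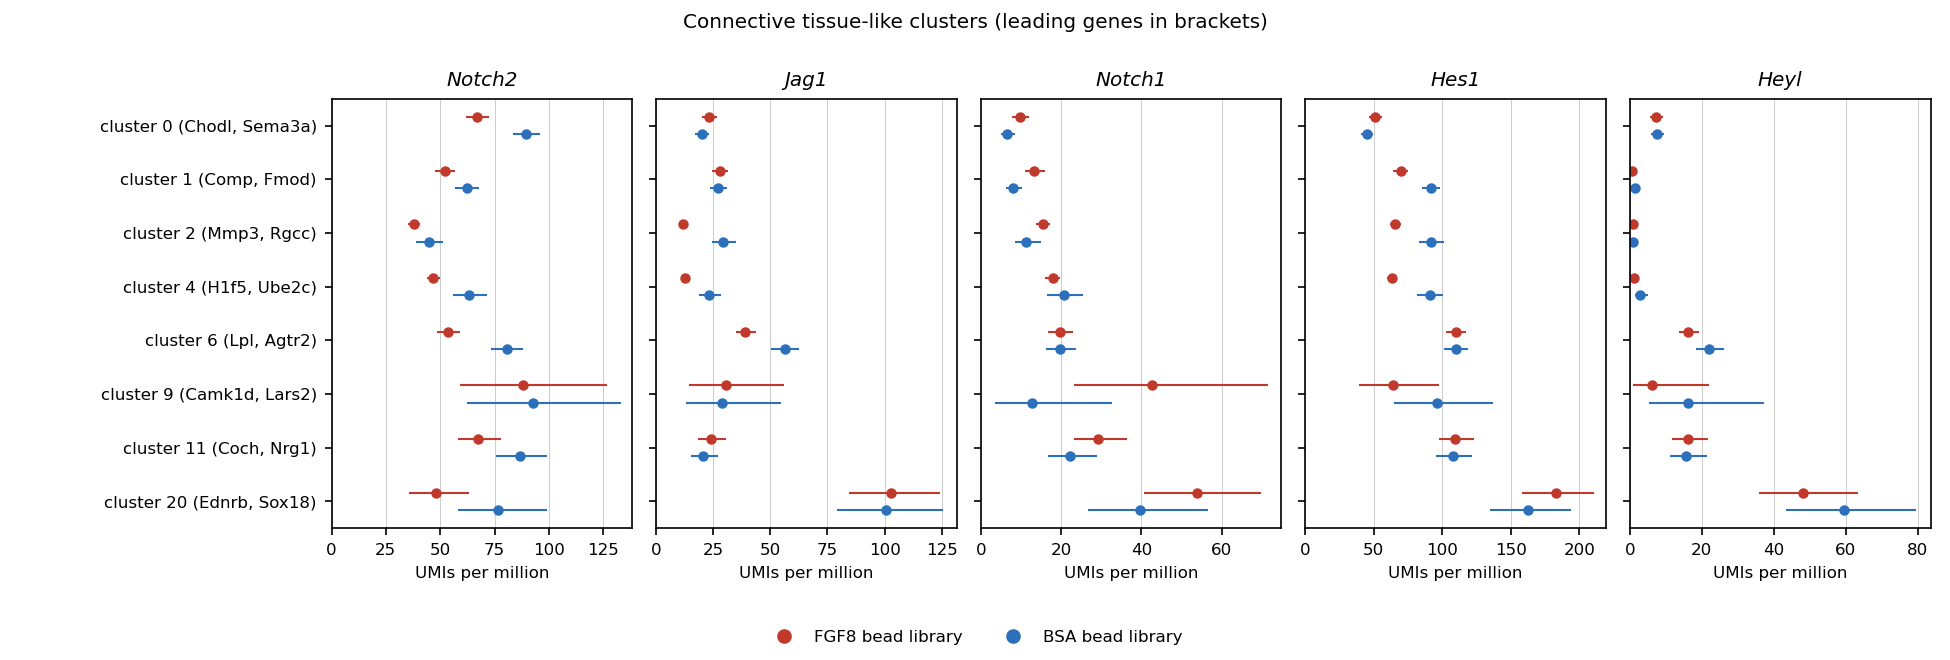
Level of Notch2, Jag1, Notch1, Hes1 and Heyl in the 8 connective tissue clusters, in CPM, 1 point per library with 95% Poisson intervals. The cluster led by Ednrb and Sox18 is highest for Jag1, at 103 and 100.5 CPM, and Notch2 is lower with FGF8 in 8 of 8 clusters.

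In endothelial cells the median log2 ratio of the 9 members with at least 10 UMIs was 0.27, against 0.01 over all genes. Dll1 passed 2-fold upward and Notch3 downward, sizes that 5.65% and 5.92% of all genes passed. Heyl had too few UMIs to be compared. Dll4 was higher with FGF8 (92.9 against 50.3 CPM, 200 against 90 UMIs, log2 ratio 0.88, interval 0.52 to 1.26). With cells thinned to 2000 UMIs the Dll4 ratio was 0.06. After thinning, a Dll4 UMI was left in 18 FGF8 and 14 BSA cells of all types. The thinned ratio rests on too few counts to show whether the difference holds at equal depth per cell. Jag1 was 46.5 against 34.1 CPM (0.45, interval -0.03 to 0.93). Dll1 had 28 against 6 UMIs (1.96, interval 0.66 to 3.52) and Notch3 only 3 against 9 (-1.85, interval -4.37 to 0.15).

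The receptors of endothelium and the targets differed less. Notch1 had a ratio of 0.27 (-0.0028 to 0.56) and Notch4 of 0.27 (-0.23 to 0.78). Notch2 was lower with FGF8 (-0.97, interval -1.65 to -0.30). Hes1 (-0.06, interval -0.29 to 0.17) and Hey1 (-0.16, interval -0.73 to 0.41) did not differ beyond counting error. The sexes differed in direction for 6 members. In male-called cells, 14 of them in the BSA library, the ratio was -0.30 for Notch1, 2.49 for Notch2, -0.18 for Notch4, -0.59 for Jag1, -0.83 for Hes1 and -0.90 for Hey1. In female-called cells it was 0.47 for Notch1, -4.57 for Notch2, 0.68 for Notch4, 1.16 for Jag1, 0.50 for Hes1 and 0.55 for Hey1. Dll4 was above 0 in both, at 0.55 and 1.28. The Dll1 ratio was 0.35 in male-called cells.

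The makeup of the endothelium differed. A lymphatic-like subcluster led by Ccl21a, Lyve1, Mmrn1 and Prox1 held 7 FGF8 cells and 47 BSA cells. Set against the other endothelial cells, a subcluster of 42 and 19 cells matched the erythroid markers best. Another of 5 and 23 cells matched the fibroblast markers best. The summed lymphatic markers of the class were at 1597 against 4193 CPM, the blood endothelial markers at 4130 against 2723, and erythroid markers at 9595 against 2204. The part of the erythroid RNA in the ratios was not tested. Without the lymphatic-like subcluster Dll4 stood at 98 against 67.2 CPM (0.54, interval 0.14 to 0.96). Hes1 was then lower with FGF8 (-0.60, interval -0.85 to -0.34), as was Hey1 (-0.65, interval -1.24 to -0.05), and the Notch2 ratio was 0.10 (-0.92 to 1.18). Dll4 and the targets thus differed in opposite directions in the remaining cells, which still hold the erythroid-matched and fibroblast-matched subclusters. Dll1 was 1.36 (-0.06 to 3.11), and the median of the members was 0.10. Dll1 and Notch3 were again past 2-fold, upward and downward, as were 5.84% and 3.57% of all genes. In the largest subcluster, led by Spp1, Gpihbp1, Apln and Esm1 (87 and 32 cells), Dll4 had a ratio of 0.51 (0.08 to 0.96) and Hes1 of -0.54 (-0.81 to -0.26).

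Cells were also split by arterial, tip and venous marker lists. In cells scored as arterial (49 and 19) Dll4 was at 133 (108 to 163) and 83.3 (54.4 to 122) CPM and Hey1 at 36.8 (24 to 53.9) and 109 (75.5 to 152). In cells scored as tip cells, the leaders of sprouts (25 and 20), Dll4 was at 146 (111 to 187) and 85.9 (57.6 to 123) CPM and Hes1 at 136 (103 to 176) and 335 (276 to 403). In cells scored as venous (44 and 19) Dll4 was low, at 19.2 and 28.5 CPM, and so was Hey1, at 5.92 and 6.34. Notch4 was at 58.1 and 76.9 CPM in arterial-scored cells and 14.8 and 31.7 in venous-scored cells. The Notch4 intervals of these groups were apart with FGF8 and overlapped with BSA, on 24 and 10 UMIs. Dll4, Hey1 and Notch4 were thus lower in venous-scored than in arterial-scored cells of both libraries. The Dll4 level was higher with FGF8 in the arterial and tip groups, with overlapping intervals, and lower in the venous group.

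**Figure D4:**
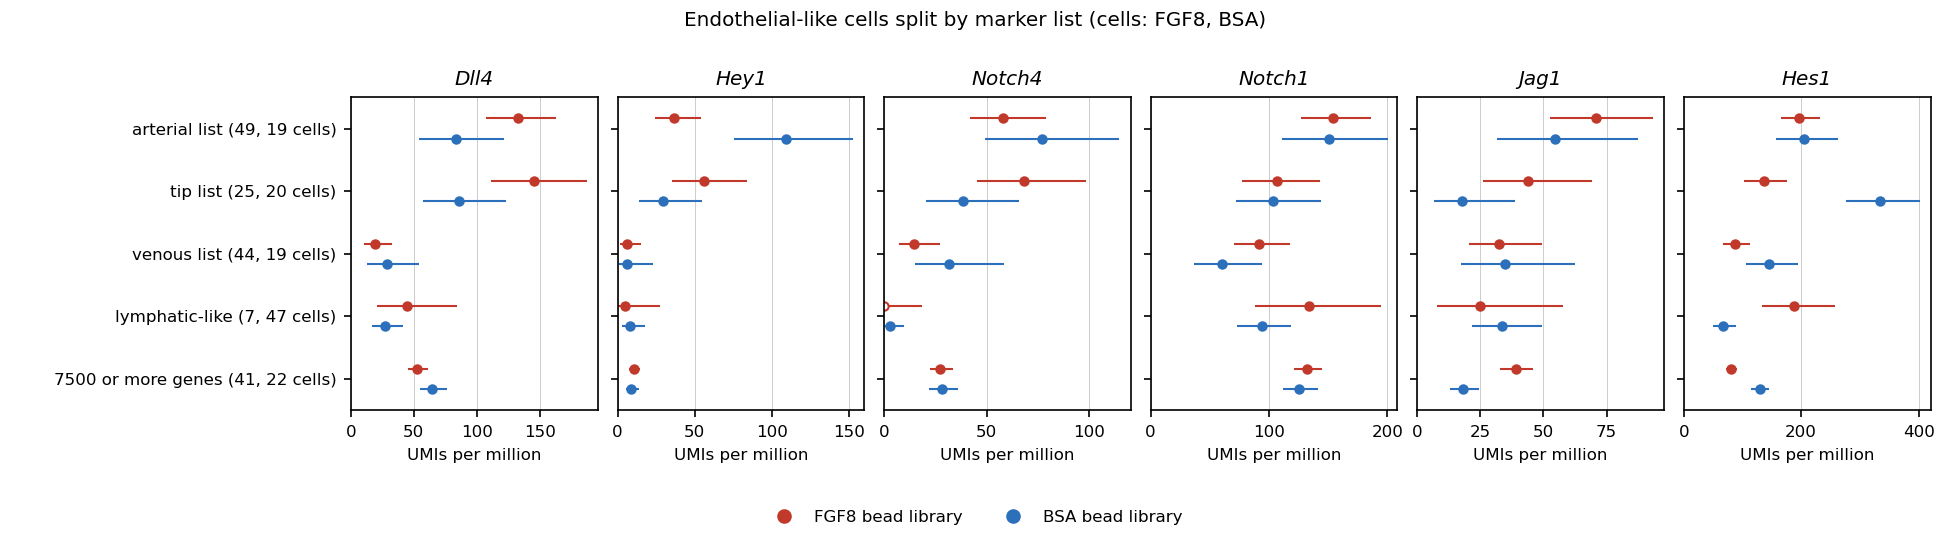
Level of members in endothelial cells split by arterial, tip and venous marker lists, in the lymphatic-like subcluster and in endothelial cells of 7500 or more genes, in CPM with 95% Poisson intervals, 1 point per library. Dll4 is at 133 and 83.3 CPM in arterial-scored cells and 52.8 and 64.8 CPM in the cells of 7500 or more genes, where the order of the libraries is the opposite.

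The cell filter bears on these genes. It leaves out 274 and 161 cells with 7500 or more genes, which held 17.0% and 18.0% of all UMIs of their libraries but 46.2% and 60.2% of the Dll4 UMIs and 38.1% and 39.1% of the Notch4 UMIs. Notch3 lost the smallest share, with 7.72% and 12.4%. Of these cells 41 and 22 were typed as endothelial. In them Dll4 was at 52.8 and 64.8 CPM (-0.30, interval -0.61 to 0.02), Jag1 at 39 and 18 (1.11, interval 0.61 to 1.65) and Hes1 at 80.5 and 129.6 (-0.69, interval -0.92 to -0.45). With these cells added, the Dll4 ratio of endothelial cells was 0.21 in place of 0.88, the Hes1 ratio -0.41, and the Notch3 ratio 0.51 in place of -1.85. The size of the Dll4 difference thus depended on the upper limit of the cell filter. In the connective tissue cells among them (123 and 78) Jag1 was again lower with FGF8 (-0.94, interval -1.27 to -0.61), as was Notch2 (-0.29, interval -0.50 to -0.08). Notch1 was not higher in them (-0.17, interval -0.53 to 0.20).

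In the mural cells that passed the filter the members were close between the libraries. None of the 7 with at least 10 UMIs passed 2-fold, a size that 5.25% of all genes passed upward and 2.51% downward, and the median was -0.12, against 0.02 over all genes. Notch3 was 411 against 446 CPM (-0.12, interval -0.23 to -0.01) and Jag1 90.7 against 107 (-0.24, interval -0.47 to -0.01). The intervals of both ended just below 0. Heyl (-0.13, interval -0.36 to 0.09), Hes1 (0.12, interval -0.05 to 0.30) and Notch1 (0.07, interval -0.30 to 0.45) did not differ beyond counting error. Notch2 stood at -0.08 (-0.50 to 0.34). Cells called female gave ratios of -0.19 for Notch1 and 0.35 for Notch2, and those called male -0.14 and 0.19.

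Within the mural cells Notch3 and Heyl were distributed differently. A subcluster led by Cygb and Kcnj8 (148 and 90 cells) had 116 (102 to 132) and 136 (117 to 157) CPM of Heyl, and a vascular smooth muscle-like subcluster (76 and 60 cells) 57.2 (43.8 to 73.5) and 61.7 (47.8 to 78.3). For Notch3 the order was the other way, with 394 and 414 CPM in the first and 449 and 531 in the second. The Notch3 intervals of the subclusters overlapped in the FGF8 library and were apart in the BSA library. The Heyl difference between the subclusters was present in both libraries with intervals apart. Jag1 was 91.3 and 89.6 CPM in the first and 98.5 and 137 in the second. Cells were clustered without the pathway genes, so these levels did not set the subclusters.

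In keratinocytes 0 of the 8 members with at least 10 UMIs passed 2-fold, against 10.2% of all genes upward and 5.15% downward, and the median was 0.20, against 0.13 over all genes. Notch1 was higher with FGF8 (131 against 99.5 CPM, 0.39, interval 0.16 to 0.63) and so was Jag1 (74.8 against 56.9, 0.40, interval 0.09 to 0.71). Notch2 was lower (85 against 122, -0.52, interval -0.76 to -0.29). Hes1 stood at 0.01 (-0.20 to 0.22). The depth of these cells differed, with medians of 11718.5 and 4287 UMIs. A subcluster led by Spp1, H3c3, H2ac8 and Vim held 47 FGF8 and 78 BSA cells, at medians of 2183 and 1756 UMIs. No keratin was among its leading genes, and its part in the ratios was not tested. The ratios were not stable. In female-called cells Notch1 stood at -0.33, Jag1 at -0.64 and Hes1 at -0.81. In male-called cells Hes1 stood at -0.63, and with each cell weighted equally Notch2 stood at 0.69.

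**Figure D5:**
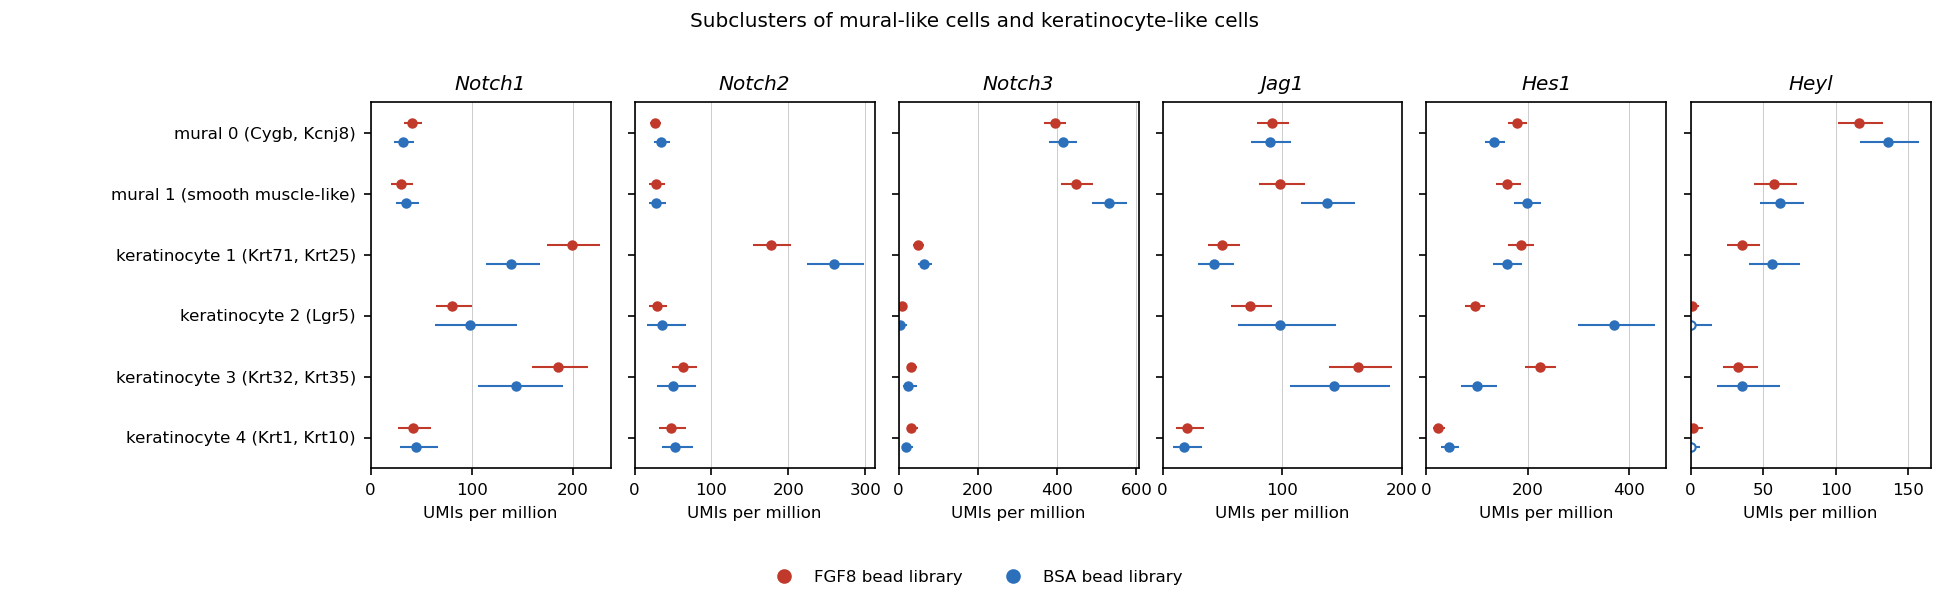
Level of members in subclusters of mural cells and of keratinocytes, in CPM with 95% Poisson intervals, 1 point per library. The Spp1-led keratinocyte subcluster and the smaller mural subclusters are not shown. Among mural cells Heyl is at 116 and 136 CPM in the Cygb and Kcnj8 subcluster, and among keratinocytes Jag1 is highest in the Krt32 and Krt35 subcluster, at 164 and 144 CPM.

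The members also differed between kinds of keratinocyte. A subcluster led by Krt71, Krt25 and Tchh, keratins and a protein of the inner root sheath of the hair (74 and 39 cells), had 177 (154 to 203) and 259 (225 to 298) CPM of Notch2 and 49 and 64.9 of Notch3. Another led by Krt32 and Krt35, hair keratins (37 and 23 cells), had the most Jag1, 164 (139 to 191) and 144 (106 to 189.8) CPM. A subcluster led by Krt1, Krt10 and Flg, genes of differentiating epidermis (28 and 24 cells), had 41.6 and 45.3 CPM of Notch1, 20.8 and 18.1 of Jag1 and 22.3 and 43.5 of Hes1. Notch1 was 199 and 139 CPM in the Krt71 subcluster and 186 and 144 in the Krt32 subcluster. Heyl was at 35.2 and 55.8 CPM in the former and 32.7 and 35.2 in the latter. In a subcluster whose leading genes include Lgr5 and also haemoglobin genes (52 and 11 cells) Hes1 was at 95 (76.8 to 116) CPM with FGF8 and 369 (298 to 451) with BSA.

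The other 45 genes of the pathway, from the ligand Jag2 to enzymes, cofactors and further targets, gave the setting. In connective tissue cells 30 of 44 with enough UMIs were lower with FGF8 and 14 higher, with a median of -0.16. Over all genes 56.5% were lower and 5.29% passed 2-fold downward. Of the 44, 1 passed 2-fold, the target Hey2 (3.98 against 9.86 CPM, -1.31, interval -1.54 to -1.07). Hey2 is also among genes the study picked from these libraries, so its direction is not independent evidence. Rbpj, the DNA-binding partner of the receptors, was higher (159 against 118 CPM, 0.43, interval 0.38 to 0.48). Its coactivator Maml2 was lower (-0.42, interval -0.47 to -0.37), as were the target Hes6 (-0.71, interval -0.84 to -0.58) and the ligand-like gene Dlk1 (-0.63, interval -0.67 to -0.59). Mib1, the ubiquitin ligase that lets a ligand pull on the receptor, stood at 68.1 against 86.2 CPM (-0.34, interval -0.41 to -0.27), and Pofut1, which adds fucose to the receptors, at 18.5 against 26.3 (-0.51, interval -0.63 to -0.39). Of the receptor's inhibitors Itch differed by -0.40 (-0.47 to -0.33) and Numb by -0.21 (-0.28 to -0.13). Of the cleavage machinery Adam10, the surface protease, differed by -0.12 (-0.19 to -0.04), while Psenen, a subunit of gamma-secretase, was at 143 and 143 CPM.

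In endothelial cells 23 of 38 other pathway genes were higher with FGF8, as were 51.0% of all genes, with a median of 0.15. Jag2, a ligand, was 66.9 against 37.5 CPM (0.84, interval 0.41 to 1.28), Maml2 451 against 253 (0.83, interval 0.67 to 1.00) and Nrarp, a target that limits the signal, 104 against 78.9 (0.40, interval 0.09 to 0.72). Without the lymphatic-like subcluster these were 0.21 (-0.22 to 0.65), 0.26 (0.09 to 0.44) and -0.02 (-0.35 to 0.31). The Jag2 and Nrarp ratios were thus nearer to 0 without the lymphatic-like cells. Dtx1, a ubiquitin ligase of the pathway, differed by -1.88 (-2.68 to -1.13), and without that subcluster it had 1 UMI in each library. Of the receptor modifiers, Mfng was at 73 against 52.6 CPM (0.47, interval 0.10 to 0.86) and Eogt at 45.5 against 25.7 (0.82, interval 0.30 to 1.36). Adam10 did not differ beyond counting error (0.02, interval -0.19 to 0.23). Dlk1 was higher, with 50 against 7 UMIs (2.57, interval 1.42 to 3.96).

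In mural cells 0 of 37 other pathway genes passed 2-fold, with a median of -0.04. Of all genes 5.25% passed it upward and 2.51% downward. Dlk1 was at 303 against 339 CPM (-0.16, interval -0.29 to -0.04). Nrarp was 152 against 126 CPM (0.27, interval 0.08 to 0.46). In keratinocytes 3 of 37 passed 2-fold upward and 1 downward, against 10.2% and 5.15% of all genes, with a median of 0.14. Jag2 was among the 3 upward, at 20.6 against 9.95 CPM (1.05, interval 0.35 to 1.82).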

How the data were processed

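The deposited matrices hold unnormalised UMI counts, which the authors made with Cell Ranger 9.0.0 on GRCm39 for 2 libraries, 1 per bead. Cells were kept by the study's rule, more than 200 and fewer than 7500 genes and under 15% mitochondrial UMIs, which the study also used against free RNA and doublets. Scrublet (scanpy 1.11.5) called 6 and 4 barcodes and had thus not worked, and no further doublets were removed. Per the submitters' processing notes Seurat was used. Here Seurat 5.3.0 and sctransform 0.4.2 (R 4.3.3) normalised each library, joined them by CCA on 30 components and clustered at resolution 0.8, with 55 pathway genes and sex-linked genes removed from the variable features (3000 to 2986). Endothelial cells, mural cells and keratinocytes were each clustered again at resolution 0.3 on the same features. Clusters were named from 6 fixed markers per type. The markers were fixed, but the scoring rule was set after the clusters were seen.

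Counts were summed per type and library and divided by the summed UMIs (CPM), with exact Poisson intervals. Ratios carry exact conditional 95% intervals and were computed where the libraries together had at least 10 UMIs of a gene. A count of 0 allows up to 3 counts. No test was made and no p-value is given, since each condition has 1 library. Named genes are all members, other pathway genes past 2-fold on at least 50 UMIs in connective tissue, endothelial or mural cells or keratinocytes, and some of the highest 2 per role. Likeness is Pearson's r of log2(CPM + 1). The members and lists were chosen with earlier results of these data known. Alternatives covered the clustering, the cell filter, depth, doublets, sex and the count minimum. Scripts were tested on simulated data. Promoter windows came from RefSeq. Python 3.11.15, scipy 1.17.1 and matplotlib 3.10.9 were used.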

Additional observations from a re-analysis of the deposited data

Results flagged for a closer look

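For 3 members the FGF8 over BSA ratio pointed up in a cell type and down in another, with both counting intervals apart from 0. These pairs were picked as the most different among all types, and the differences were not tested. Notch3 was higher with FGF8 in macrophages (43 against 6 UMIs, 1.96, interval 0.72 to 3.48) and lower in Schwann cells (3.09 against 8.94 CPM, -1.53, interval -2.80 to -0.35), 3.49 log2 units apart. In macrophages the summed pericyte markers were at 63.8 against 37.8 CPM and vascular smooth muscle markers at 70.5 against 27.1. In Schwann cells they were at 185 against 251 and 78.6 against 188. These lists moved with Notch3 in both types, and their part in the result was not tested.

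Jag1 was higher with FGF8 in neutrophils (42 against 6 UMIs, 1.38, interval 0.14 to 2.90) and lower in connective tissue cells (-0.59, interval -0.71 to -0.48), 1.97 apart. Neutrophils also had pericyte markers at 139.7 against 27.3 CPM and vascular smooth muscle markers at 347 against 43.4, and the part of these in the result was not tested.

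Hes1 was higher with FGF8 in macrophages (10.9 against 6.51 CPM, 0.74, interval 0.15 to 1.38) and lower in mast cells (100.3 against 202 CPM, -1.01, interval -1.68 to -0.37), 1.76 apart, on 57 and 38 mast cells.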

How the results depend on the processing

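No paired analysis was possible because each condition has 1 library. Under the alternatives, 159 values of medians and counts moved by less than their spread and 22 by more. Among the values of single genes 75 moved out of their counting interval. The sign of the ratio changed in 53 of 468 values, and in 1 of these the gene had been past 2-fold. Counted by gene and cell type, 25 of 34 ratios changed sign under at least 1 alternative. In connective tissue cells the number of members above 2-fold was 1, in place of 0, under a stricter cell filter, with each cell weighted equally, with ratios centred on the median gene and with clusters weighted equally (chosen after seeing the data). The number below 2-fold downward was 1 with each cell weighted equally and 2 in male-called cells. In endothelial cells the number downward was 0, in place of 1, with types called per cell, with thinned cells, in male-called cells, with at least 30 UMIs and with the cells of 7500 or more genes, and 2 under the stricter filter and without the highest Scrublet scores. The number upward was 2 under the stricter filter and in female-called cells. Notch3 in endothelial cells reversed to 0.51 with the cells of 7500 or more genes, also chosen after seeing the data. In mural cells the number downward was 1 with types called per cell, and the median was 0.14 with thinned cells. In keratinocytes the number upward was 1 with types called per cell, with thinned cells and with the cells of 7500 or more genes, and the median was -0.72 in female-called cells. The number of members with the same highest type in both libraries was 8, and 3 in male-called cells. It was also lower in female-called cells, where Notch2 and Dll1 differed besides Notch1 and Hes1. With types called per cell Jag1 differed as well, and under the stricter filter Dll1. The causes of these shifts were not tested, except that added cells and removed cells change the values by construction.

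Notch2 and Notch1 in connective tissue cells kept their sign in all 15 alternatives, as did Jag1, with Jag1 between -0.73 and -0.17. Dll4 in endothelial cells kept its sign in all 15, between 0.06 with thinned cells and 1.34 under the stricter filter. Dll1, Notch4 and Dll4 rest on the fewest counts in kept cells, 130, 180 and 225 UMIs with FGF8 and 53, 116 and 101 with BSA.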

Other observations

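In the unnamed cluster of low UMI count (361 and 136 cells) Notch3 was at 16.7 against 88.3 CPM (FGF8 against BSA), Jag1 at 56.6 against 155 and Heyl at 7.33 against 28.4.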
